A study of Caenorhabditis elegans with 12 samples.

Results

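The CCCH zinc finger genes of the early Caenorhabditis elegans embryo encode RNA-binding proteins with a pair of fingers of the tristetraprolin type. Of this class, pos-1, mex-1, mex-5, mex-6, pie-1, oma-1 and oma-2 were taken by gene name from deposited tables of read counts and mean poly(A) tail lengths. A gene was kept where its row named no other gene. That held for 6 of the 7 genes, among 28032 rows with a single name of 31753 in all. The mex-1 row joined 28 gene names over 248961 bp of chromosome II (11948522 to 12197482, ce10) with 24 poly(A) peaks, so its reads could not be assigned to mex-1 and no value of mex-1 is given.

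The series used PAT-seq, which extends the end of a poly(A) tail with a tag and sequences directionally across the tail into the 3' end of the RNA. Early embryos were collected, of which the labels place over 90% between the zygote and the 24-cell stage. The 12 libraries formed 6 groups of 2. In N2 worms, RNAi by feeding targeted pos-1, or gld-3, or gld-2, or mex-5 in a group each, beside the mutant mex-6(pk440) and wild-type N2. All share the N2 background. Per the protocols, RNAi worms ate E. coli HT115(DE3) that had expressed double-stranded RNA under IPTG for 6 h, and wild-type worms ate E. coli OP50, so RNAi and food cannot be told apart in comparisons with N2. The sources used here do not say which food the mex-6(pk440) worms ate. RNAi lowers a transcript and need not remove it. Nothing in the labels says that replicates came from separate cultures, so p-values measure the spread between these libraries, which may be technical. In whole embryos, fewer cells that hold an RNA and less of that RNA per cell cannot be told apart.

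The messages of all 7 genes are supplied by the mother, and their proteins act before or alongside the first zygotic transcription. OMA-1 and OMA-2 are largely redundant proteins of the oocyte that permit its maturation and repress the translation of maternal messages, and they are destroyed soon after the first division. MEX-5 and MEX-6 are close relatives that collect in the anterior cytoplasm of the zygote and restrict germ plasm proteins to the posterior. POS-1, MEX-1 and PIE-1 go to the posterior, germline side: POS-1 controls translation of maternal messages such as glp-1, and PIE-1 keeps RNA polymerase II silent in the germline blastomeres. Messages of this kind are stored with short or long tails, and cytoplasmic poly(A) polymerases such as GLD-2, with its partner GLD-3, lengthen tails after the RNA has left the nucleus.

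Each of 5 genes had a single poly(A) peak, the 101 bp window in which the authors counted reads that end in a tail. The gene pos-1 lies on chromosome V (8414074 to 8414920, plus strand, ce10), with its peak 213 to 313 bp past the annotated end. The gene mex-5 lies on chromosome IV (13353706 to 13355519, plus strand), with its peak 463 to 563 bp past the end. The gene mex-6 lies on chromosome II (9524122 to 9525816, plus strand), with its peak 389 to 489 bp past the end. The deposited gene models therefore stop short of the sites where these RNAs end. For oma-2 on chromosome V (8029489 to 8030900, plus strand) the peak lay 195 to 295 bp past the end. For pie-1 on chromosome III (12426792 to 12428986, plus strand) it began inside the model and ended 89 bp past it. The gene oma-1 on chromosome IV (8889073 to 8890519, plus strand) had 4 peaks.

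Gene reads per library ran from 4613974 to 10229871, of which 35.4% to 56.7% were rRNA, and the 6 genes held 4179 to 20577 reads of a library. Levels are in CPM, the TMM-scaled reads of a gene relative to the total of its library. All 7 maternal markers (pos-1, mex-5, oma-1, pie-1, nos-2, spn-4 and glp-1) had reads in every library. Of these, pos-1, mex-5, oma-1 and pie-1 belong to the set, and pos-1 and mex-5 were RNAi targets. Their sum was 1246 and 1227 CPM in pos-1 RNAi, 1517 and 1506 CPM in gld-3 RNAi, and 1220 and 1112 CPM in gld-2 RNAi. It was 1047 and 952 CPM in mex-5 RNAi, 1849 and 1623 CPM in mex-6(pk440), and 1895 and 2156 CPM in N2. The sum of 6 early zygotic markers was 46.2 and 33.2 CPM in pos-1 RNAi, 129.9 and 129.8 CPM in gld-3 RNAi, 80.2 and 80.3 CPM in gld-2 RNAi, 47.2 and 49.1 CPM in mex-5 RNAi, 132 and 125 CPM in mex-6(pk440), and 119 and 114 CPM in N2. It was lowest in pos-1 RNAi and mex-5 RNAi, and 2 of these markers had libraries at 0: med-1 in replicate 2 of pos-1 RNAi, gld-2 RNAi and mex-5 RNAi, and tbx-35 in the same libraries and in mex-5 RNAi replicate 1. The sum of 6 later embryo markers (myo-2, elt-2, elt-7, dlg-1, hlh-1 and unc-54) was 217 and 230 CPM in pos-1 RNAi, 163 and 168 CPM in gld-3 RNAi, 244 and 288 CPM in gld-2 RNAi, 293 and 311 CPM in mex-5 RNAi, 119 and 143 CPM in mex-6(pk440), and 127 and 116 CPM in N2. All 4 RNAi groups thus lay above N2 on that sum, mex-5 RNAi the most. Of the 6 markers, however, 0 were called in gld-3 RNAi, against 8.08% of all genes, and their median log2 change was -0.17. In pos-1 RNAi 3 of the 6 markers were called lower and 1 higher, against 12.2% of all genes called. The sum of 5 eggshell and oocyte markers (cpg-1, cpg-2, cbd-1, egg-1 and rme-2) was 289 and 276 CPM in gld-2 RNAi, against 1019 and 976 CPM in N2, with the other groups between 669.9 and 1909 CPM. Sperm markers were low beside them, with sums of 4.46 to 58.5 CPM for 5 genes. The sum of 4 yolk genes was 128 and 221 CPM in N2 and 231 and 240.2 CPM in gld-2 RNAi. In the other groups the yolk sum was 16.7 to 71 CPM.

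Transcript levels were set against N2 first. All 6 genes had estimates below N2 in each of the 5 comparisons, which share the same N2 libraries. The share of all genes below N2 is not given, but their median was also below 0 in each, from -0.087 to -0.0050 (log2). Some estimates were small, such as -0.038 for oma-1 in mex-6(pk440) (edgeR adjusted p = 0.97). The targeted genes among the 6 fell the most. The mex-6 transcript fell together with mex-5 under mex-5 RNAi, and oma-1, oma-2 and pie-1 fell in gld-2 RNAi. A gene was called where the adjusted p of edgeR's quasi-likelihood test, fitted on 9403 genes and adjusted by the Benjamini-Hochberg method, was under 0.05. In the test of any difference among the 6 groups, 6 of 6 genes were called, against 44.5% of all genes tested. They include pos-1, mex-5 and mex-6, each of which was targeted by RNAi or mutated in a group. On dropping either gld-2 RNAi library 4 of 6 remained called, without pie-1 (adjusted p = 0.10 for replicate 1, 0.072 for replicate 2) and oma-2 (0.13 and 0.075). The pie-1 call also ended on dropping N2 replicate 1 (0.089) or mex-5 RNAi replicate 2 (0.0504).

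**Figure D1:**
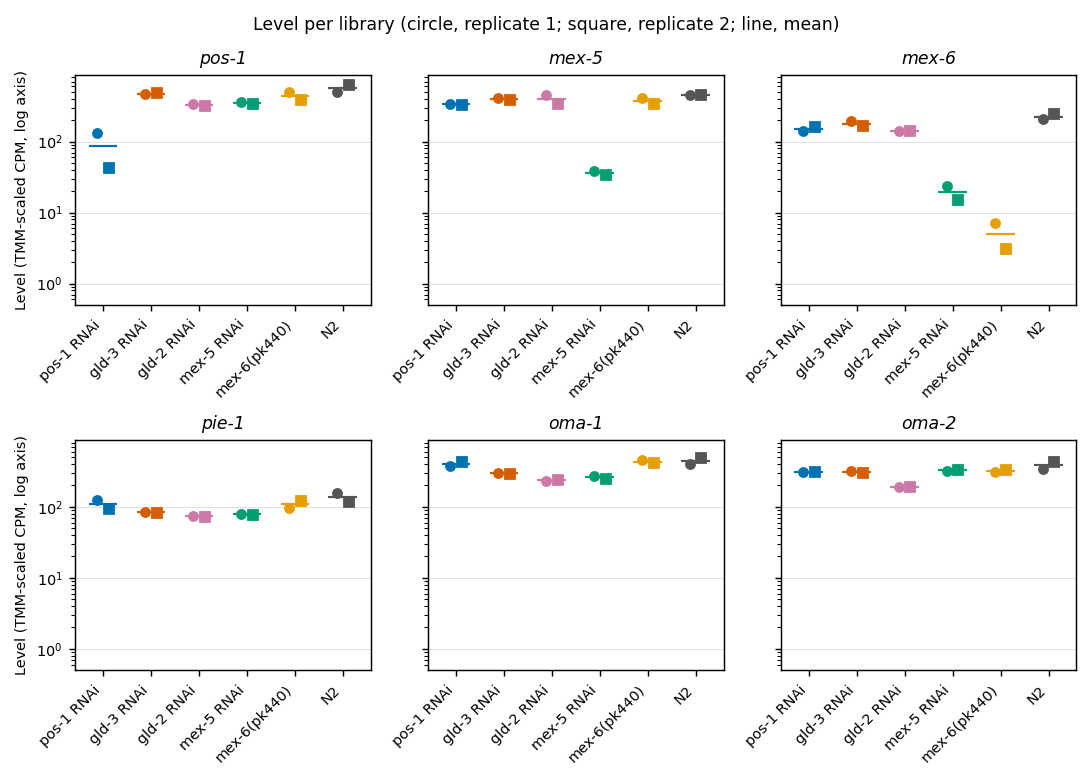
Level of each gene in CPM (log axis) in each of the 12 libraries, with circles for replicate 1, squares for replicate 2 and a line at the mean of a group. The targeted genes drop far below the other groups, mex-6 is low in both mex-5 RNAi and mex-6(pk440), and oma-2 is lowest in gld-2 RNAi.

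Under pos-1 RNAi, the pos-1 transcript remained at 132 and 42.7 CPM, against 506 and 625 CPM in N2. Both pos-1 RNAi libraries lay below every other library, and the ratio between them was larger than between the libraries of any other group. The log2 change was -2.69 ± 0.38 (SE; n = 2 per group, edgeR adjusted p = 0.0017). It was -3.66 without pos-1 RNAi replicate 1 and -2.01 without pos-1 RNAi replicate 2, and it passed in each case. In this comparison 1 of 6 genes was called, the target pos-1 itself, against 12.2% of all genes. The other 5 differed from N2 by -0.13 to -0.58 on the log2 scale.

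MEX-5 and MEX-6 are similar in sequence, and their transcripts were followed as a pair. Under mex-5 RNAi, mex-5 stood at 38.6 and 34.2 CPM, against 456 and 448 CPM in N2. In the same libraries mex-6 stood at 23.9 and 14.9 CPM, against 205 and 243 CPM in N2. The levels fell to 8.07% of N2 for mex-5 (log2 change -3.63 ± 0.22, SE; edgeR adjusted p = 5.5e-07) and to 8.75% of N2 for mex-6 (-3.51 ± 0.32, adjusted p = 1.6e-05), so both transcripts were reduced to a similar share. With pie-1 and oma-1, 4 of 6 genes were called, all of them lower, against 30.8% of all genes called and 12.5% called lower. The 4 include mex-5, the target. Both mex-5 RNAi libraries lay below both N2 libraries for 6 of 6 genes, against 32.7% of all genes.

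In mex-6(pk440), mex-6 had 59 and 15 reads, or 7.02 and 3.06 CPM, against 205 and 243 CPM in N2. The same libraries held mex-5 at 406 and 335 CPM, against 456 and 448 CPM in N2. Only mex-6, the mutated gene, was called (log2 change -5.41 ± 0.36, SE; edgeR adjusted p = 7.8e-06), as 1 of 6 genes against 0.0213% of all genes. For mex-5 the change was -0.29 ± 0.20 (adjusted p = 0.69). Reads of related genes can be assigned to the wrong copy, and whether that occurred between mex-5 and mex-6 was not tested. These libraries carry the name of mex-6 RNAi in the deposited columns and of mex-6(pk440) in the titles, and the titles were followed.

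Embryos under mex-5 RNAi were also tested directly against mex-6(pk440). In this test mex-5 was lower under mex-5 RNAi (log2 difference -3.34 ± 0.22, SE; edgeR adjusted p = 1.4e-06). The mex-6 transcript was higher under mex-5 RNAi, by 1.89 ± 0.34 (adjusted p = 0.0015). That difference ran from 1.46 without mex-6(pk440) replicate 2 to 2.65 without mex-6(pk440) replicate 1, and it was called each time. With oma-1, lower in mex-5 RNAi, 3 of 6 genes were called, against 20.8% of all genes. The 3 include mex-5 and mex-6, the genes targeted or mutated in these groups.

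Apart from mex-6 in mex-5 RNAi, the transcripts of pos-1, mex-5 and mex-6 were not called against N2 in groups where they were not targeted. The pos-1 transcript stood at 362 and 337 CPM in mex-5 RNAi (log2 change -0.69 ± 0.36, SE; edgeR adjusted p = 0.17) and at 503 and 379 CPM in mex-6(pk440) (-0.36 ± 0.36, adjusted p = 0.82), against 506 and 625 CPM in N2. The mex-5 transcript stood at 333 and 332 CPM in pos-1 RNAi, 412 and 389 CPM in gld-3 RNAi and 447 and 338 CPM in gld-2 RNAi, against 456 and 448 CPM in N2. These libraries all lay below both N2 libraries, but gld-2 RNAi replicate 1 only narrowly (447.0 CPM, against 447.9 CPM in N2 replicate 2). The group estimates ran from -0.18 to -0.44 on the log2 scale. The mex-6 transcript stood at 139 and 161 CPM in pos-1 RNAi, 194 and 163 CPM in gld-3 RNAi and 139 and 142 CPM in gld-2 RNAi, against 205 and 243 CPM in N2, also with no overlap (-0.33 to -0.67 on the log2 scale). Both pos-1 and mex-6 passed in gld-2 RNAi in a fit of the 4 libraries alone (adjusted p = 0.026 and 0.040), as did pos-1 in mex-5 RNAi (0.035).

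The proteins of oma-1 and oma-2 act in the oocyte before fertilisation. The oma-2 transcript stood at 314 and 308 CPM in pos-1 RNAi, 320.5 and 303 CPM in gld-3 RNAi, 189.9 and 189 CPM in gld-2 RNAi, 322 and 328 CPM in mex-5 RNAi, 312 and 333 CPM in mex-6(pk440), and 344 and 428 CPM in N2. The 2 gld-2 RNAi libraries lay apart from the other 10, which spanned 303 to 428 CPM. The change in gld-2 RNAi was -1.03 ± 0.19 (log2, SE; edgeR adjusted p = 0.0020), or 49.1% of N2, and it passed in all 10 alternatives, with values from -1.19 to -0.89. Against gld-2 RNAi, gld-3 RNAi embryos held more oma-2 (log2 difference 0.72 ± 0.18, SE; adjusted p = 0.025), the only 1 of 6 genes called in that comparison, against 10.8% of all genes. That call ended on dropping either gld-2 RNAi library (adjusted p = 0.18 for replicate 1, 0.080 for replicate 2) or gld-3 RNAi replicate 1 (0.094), and in a fit of the 4 libraries alone (0.087).

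The oma-1 transcript stood at 377 and 431 CPM in pos-1 RNAi, 300.5 and 289 CPM in gld-3 RNAi, 228 and 242 CPM in gld-2 RNAi, 272 and 246 CPM in mex-5 RNAi, 455 and 408 CPM in mex-6(pk440), and 397 and 489 CPM in N2. The libraries of gld-3, gld-2 and mex-5 RNAi all lay below those of pos-1 RNAi, mex-6(pk440) and N2. The log2 change from N2 was -0.91 ± 0.19 in gld-2 RNAi (SE; edgeR adjusted p = 0.0046), and this call ended on dropping gld-2 RNAi replicate 1 (adjusted p = 0.069). It was -0.77 ± 0.19 in mex-5 RNAi (adjusted p = 0.0082), a call that ended on dropping replicate 2 of either group (0.071 for N2, 0.076 for mex-5 RNAi). In gld-3 RNAi the change of -0.59 ± 0.19 did not pass (adjusted p = 0.072). Against mex-6(pk440), levels in mex-5 RNAi differed by -0.74 ± 0.19 (adjusted p = 0.014), a call that ended on dropping mex-5 RNAi replicate 2 (0.10) or mex-6(pk440) replicate 1 (0.098). Levels in pos-1 RNAi were above those in mex-5 RNAi by 0.64 ± 0.19 (adjusted p = 0.021), a call that ended on dropping replicate 2 of either group (0.094 for mex-5 RNAi, 0.087 for pos-1 RNAi) and in a fit of the 4 libraries alone (0.064). For oma-2 the value under mex-5 RNAi was -0.25 ± 0.18 (adjusted p = 0.33), and the difference between these genes was not tested.

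PIE-1 represses transcription in the germline blastomeres. Its transcript stood at 126 and 93.8 CPM in pos-1 RNAi, 85.6 and 81.6 CPM in gld-3 RNAi, 74.8 and 71.9 CPM in gld-2 RNAi, 79.9 and 76.9 CPM in mex-5 RNAi, 97.7 and 121 CPM in mex-6(pk440), and 156 and 117 CPM in N2. The gld-3, gld-2 and mex-5 RNAi libraries again lay below all others. The log2 change was -0.90 ± 0.23 in gld-2 RNAi (SE; edgeR adjusted p = 0.012) and -0.80 ± 0.23 in mex-5 RNAi (adjusted p = 0.016). Of the 4 fits with a library dropped, each call held only in the one without N2 replicate 2. In gld-2 RNAi the adjusted p was 0.10 on dropping N2 replicate 1, and 0.098 and 0.075 on dropping gld-2 RNAi replicates 1 and 2. In mex-5 RNAi it was 0.14 on dropping N2 replicate 1, and 0.066 and 0.11 on dropping mex-5 RNAi replicates 1 and 2.

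Part of the pie-1 reads lay outside its poly(A) peak. The peak held 57.7% and 90.5% of the gene reads in pos-1 RNAi, 54.9% and 77.7% in gld-3 RNAi, 71.7% and 83.1% in gld-2 RNAi, 66.4% and 84.2% in mex-5 RNAi, 81.9% and 83.4% in mex-6(pk440), and 55.3% and 94.9% in N2. Replicate 1 was the lower library in each group. For the other 5 genes 88.8% to 100% of the reads lay in peaks. On the reads of peaks alone, an alternative added after seeing the data, pie-1 changed by -0.79 in gld-2 RNAi (edgeR adjusted p = 0.012) and by -0.69 in mex-5 RNAi (adjusted p = 0.020). In gld-3 RNAi it changed by -0.75 and passed (adjusted p = 0.030), while on all reads the change of -0.71 ± 0.22 did not (adjusted p = 0.067).

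In gld-2 RNAi, 3 of 6 genes were called, all lower, against 27.1% of all genes called and 12.8% called lower. Both libraries lay below both N2 libraries for 6 of 6 genes, against 33.1% of all genes. For pos-1 the gld-2 RNAi libraries held 333 and 315 CPM, against 506 and 625 CPM in N2, a change of -0.80 ± 0.36 that did not pass (edgeR adjusted p = 0.11). The same libraries held fewer reads of the 5 eggshell and oocyte markers, all 5 of which were called lower, and more of the later embryo markers, of which 3 of 6 were called higher. In mex-5 RNAi, 4 of 6 later embryo markers were called higher. Called lower were 2 of the 4 early zygotic markers that could be tested, 4 of 4 yolk and 4 of 5 sperm markers. The shares of all genes in mex-5 RNAi were 30.8% called and 12.5% called lower. The part of these markers in the lower oma-1, oma-2 and pie-1 levels was not tested.

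In gld-3 RNAi, 0 of 6 genes were called by edgeR and 0 by DESeq2, against 8.08% of all genes called by edgeR. At an unadjusted edgeR p under 0.05 stood 2 of 6, against 2465 of 9403 genes. Both gld-3 RNAi libraries were below both N2 libraries for 6 of 6 genes, against 27.6% of all genes. The pos-1 transcript itself stood at 461 and 486 CPM in gld-3 RNAi, against 506 and 625 CPM in N2 (log2 change -0.26 ± 0.36, SE; adjusted p = 0.69). Between pos-1 RNAi and gld-3 RNAi only pos-1, a target, was called (-2.44 ± 0.38, edgeR adjusted p = 0.0019), as 1 of 6 genes against 4.56% of all genes. That call ended in a fit of the 4 libraries alone (adjusted p = 0.064). Between pos-1 RNAi and mex-5 RNAi 4 of 6 genes were called, against 28.9% of all genes: mex-5, mex-6 and oma-1 were higher and pos-1 was lower in pos-1 RNAi. Of these, pos-1 and mex-5 were the targets.

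**Figure D2:**
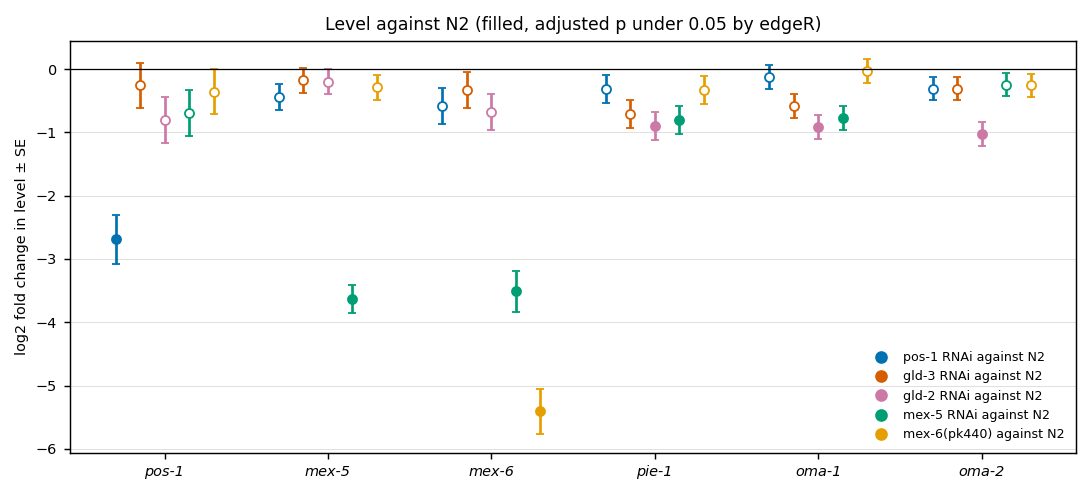
Log2 fold change in level against N2 from edgeR, with an SE derived from its F statistic, for each gene in the 5 other groups (n = 2 libraries per group). Filled points have an adjusted p under 0.05: pos-1 in pos-1 RNAi, mex-5 and mex-6 in mex-5 RNAi, mex-6 in mex-6(pk440), and pie-1, oma-1 and oma-2 in gld-2 RNAi, with pie-1 and oma-1 also in mex-5 RNAi. All points lie below 0.

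Tail length is the deposited mean over the reads of a gene with a measured tail, in nt. Libraries were selected for inserts of 120 to 300 bases, which limits the longest tails that could be read. In N2 the 6 genes differed widely in tail length, from 30.3 ± 1.27 nt for oma-2 to 53.3 ± 4.54 nt for mex-5 (SD, n = 2). Among 5000 genes with a single name and a tail in all libraries, whose median was 42.3 nt, mex-5 lay at percentile 86.3, pos-1 at 76.1, oma-1 at 50.1, pie-1 at 42.9, mex-6 at 34 and oma-2 at 8.78. The closely related pairs were thus split: in the 2 N2 libraries mex-6 tails less mex-5 tails came to -16.1 and -13.7 nt, and oma-2 tails less oma-1 tails to -11.6 and -12.4 nt. In every library of the series mex-6 had the shorter tail of its pair and oma-2 the shorter tail of its pair.

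Tails were tested with limma on 5471 genes, and 0 of 6 genes were called in any of the 5 comparisons with N2. The share of all genes called was 0.0183% in pos-1 RNAi and in gld-3 RNAi, 0.238% in gld-2 RNAi, 0.402% in mex-5 RNAi and 0% in mex-6(pk440). At an unadjusted p under 0.05 stood 1 of the 6 genes in pos-1 RNAi, 5 in gld-3 RNAi, 2 in gld-2 RNAi, 3 in mex-5 RNAi and 1 in mex-6(pk440). Of all 5471 genes, 635, 841, 903, 838 and 195 met that cut in the same order. Median tails also differed between libraries, at 45.2 and 45.6 nt in pos-1 RNAi, 42.7 and 46.9 nt in gld-3 RNAi, 45.8 and 46 nt in gld-2 RNAi, 42.8 and 46.2 nt under mex-5 RNAi, 42.3 nt in both mex-6(pk440) libraries, and 44.2 and 40.4 nt in N2. Results are therefore also given for centred tails, from which the median of the library was subtracted.

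**Figure D3:**
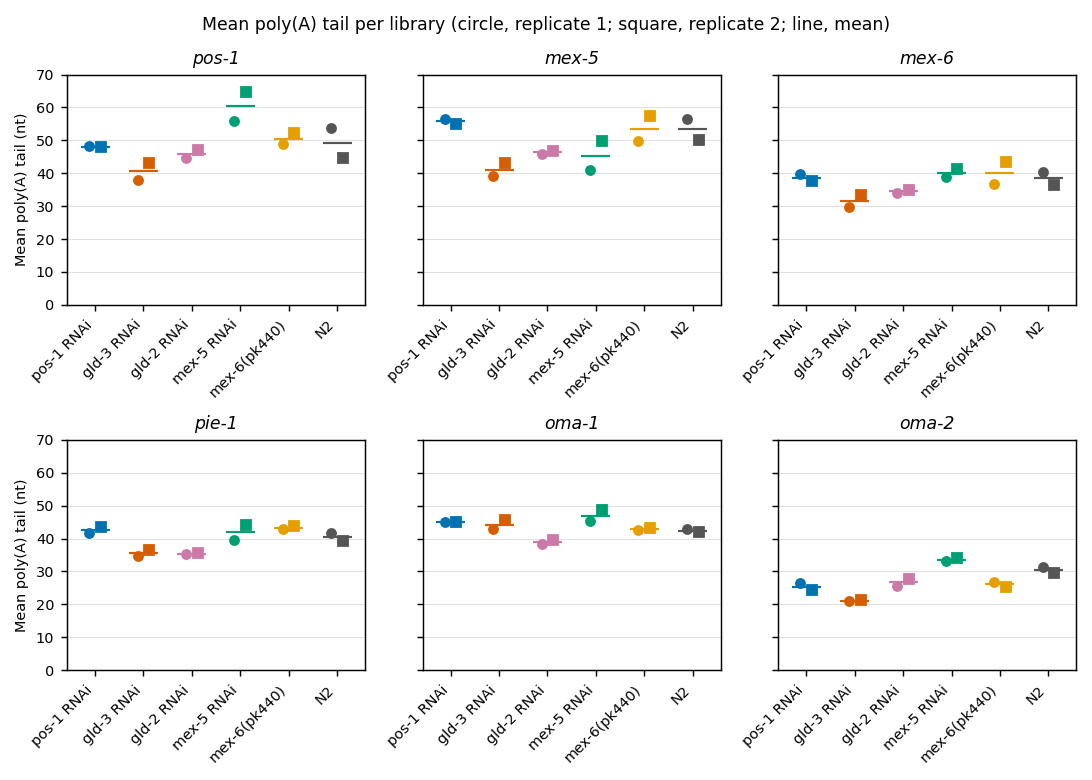
Mean poly(A) tail in nt of each gene in each of the 12 libraries, with circles for replicate 1, squares for replicate 2 and a line at the mean of a group. Tails of pos-1 are longest in mex-5 RNAi, those of mex-5 are shortest in gld-3 RNAi among the untargeted groups, and oma-2 has the shortest tails of the set throughout.

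Tails were shorter in gld-3 RNAi for 5 of the 6 genes, with both libraries below both N2 libraries, against 13.6% of all genes; oma-1 was the exception. The largest of these differences was in mex-5, with 39.1 and 43 nt in gld-3 RNAi, against 56.5 and 50.1 nt in N2 (-12.3 ± 3.18 nt, SE; limma adjusted p = 0.16). For oma-2 the tails were 20.9 and 21.4 nt in gld-3 RNAi, against 31.2 and 29.4 nt in N2 (-9.18 ± 1.64 nt, adjusted p = 0.12). For pos-1 they were 38 and 43.1 nt in gld-3 RNAi, against 53.8 and 44.6 nt in N2 (-8.68 ± 3.25 nt, adjusted p = 0.26). None of these passed. Tails of mex-6 differed by -6.79 ± 2.57 nt and those of pie-1 by -4.95 ± 2.20 nt, while oma-1 had 42.8 and 45.7 nt in gld-3 RNAi, against 42.8 and 41.9 nt in N2. The median difference was -7.74 nt over the 6 genes and 2.13 nt over all genes tested.

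After centring, mex-5 (-14.8 nt), oma-2 (-11.7 nt) and pos-1 (-11.2 nt) passed in gld-3 RNAi (limma adjusted p = 0.014, 0.013 and 0.032), as 3 of 6 genes against 0.877% of all genes. These calls rested on few libraries. Each ended on dropping gld-3 RNAi replicate 2 (adjusted p = 0.092 for mex-5, 0.10 for oma-2 and 0.16 for pos-1). The mex-5 and pos-1 calls also ended on dropping N2 replicate 1 (0.066 and 0.11), the oma-2 call on dropping N2 replicate 2 (0.074), and the pos-1 call on dropping gld-3 RNAi replicate 1 (0.053). The direction was the same in each of these fits. For oma-2 the uncentred test also passed on log2 tails (-0.52, adjusted p = 0.0081) and with weights by reads (adjusted p = 0.028), as did mex-5 with weights (adjusted p = 0.043).

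The gap in tail length between the OMA pair is given for each library as a description, and its difference between groups was not tested. In gld-3 RNAi oma-2 tails less oma-1 tails came to -21.8 and -24.3 nt, against -11.6 and -12.4 nt in N2. The same difference was -18.5 and -20.6 nt in pos-1 RNAi, -12.7 and -11.6 nt under gld-2 RNAi, -12.3 and -14.6 nt under mex-5 RNAi, and -15.8 and -17.8 nt in the mex-6(pk440) libraries. The gap was widest in gld-3 RNAi and lay near the N2 gap in gld-2 RNAi.

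In gld-2 RNAi all 6 genes had mean tails below N2, and 5 of 6 had both libraries below both, against 10.1% of all genes. Tails of pie-1 were 35.3 and 35.5 nt in gld-2 RNAi, against 41.8 and 39.3 nt in N2 (-5.13 ± 2.20 nt, SE; limma adjusted p = 0.28). Those of oma-1 were 38.4 and 39.4 nt in gld-2 RNAi, against 42.8 and 41.9 nt in N2 (-3.45 ± 1.70 nt, adjusted p = 0.33). The gld-2 RNAi libraries held the shortest oma-1 tails of the series. The median difference was -3.78 nt over the 6 genes and 2.74 nt over all genes tested. After centring, mex-5 (-10.6 nt, adjusted p = 0.046), pie-1 (-8.72 nt, adjusted p = 0.031) and oma-1 (-7.04 nt, adjusted p = 0.036) passed, as 3 of 6 genes against 1.33% of all genes. The mex-5 and pie-1 calls ended on dropping any of the 4 libraries (adjusted p from 0.14 to 0.26 and from 0.078 to 0.22). The oma-1 call held only with N2 replicate 1 dropped, and ended with N2 replicate 2 (0.21) or gld-2 RNAi replicate 1 (0.14) or 2 (0.22) dropped. Between gld-3 RNAi and gld-2 RNAi no tail difference of the 6 genes passed (limma, 0 of 6 called, against 0.567% of all genes). At an unadjusted limma p under 0.05 stood 2 of 6, against 510 of 5471 genes. Those 2 differed in sign: oma-1 tails were 5.34 ± 1.70 nt longer in gld-3 RNAi (adjusted p = 0.26), and oma-2 tails differed by -5.59 ± 1.64 nt (adjusted p = 0.23).

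Under mex-5 RNAi, 3 of 6 genes had both libraries above both N2 libraries in tail length, against 27.4% of all genes, and the tails of pos-1 stood highest. They were 55.9 and 64.7 nt in mex-5 RNAi, against 53.8 and 44.6 nt in N2, and both lay above every other library. The difference was 11.1 ± 3.25 nt (SE; limma adjusted p = 0.15), and after centring 8.90 ± 2.12 nt (adjusted p = 0.055). The centred difference passed on dropping replicate 1 of either group (0.046 for N2, 0.042 for mex-5 RNAi) and missed on dropping replicate 2 (0.28 for N2, 0.29 for mex-5 RNAi). The remaining mex-5 RNA had tails of 40.9 and 49.8 nt in mex-5 RNAi, against 56.5 and 50.1 nt in N2 (-7.97 ± 3.18 nt, adjusted p = 0.27), on 237 and 138 reads in mex-5 RNAi. After centring this was -10.2 nt and passed (adjusted p = 0.046), as 1 of 6 genes against 1.72% of all genes, and it ended on dropping any of the 4 libraries (adjusted p from 0.068 to 0.17). The remaining mex-6 RNA had tails of 38.9 and 41.2 nt in mex-5 RNAi, against 40.4 and 36.4 nt in N2. The mex-6 libraries of these groups overlapped in tail length.

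Embryos under pos-1 RNAi set against those under mex-5 RNAi gave the only call on uncentred tails. Tails of oma-2 were 26.4 and 24.3 nt in pos-1 RNAi, against 33 and 34.1 nt in mex-5 RNAi (-8.20 ± 1.64 nt, SE; limma adjusted p = 0.047), as 1 of 6 genes against 0.841% of all genes. The call ended on dropping any of the 4 libraries (adjusted p from 0.16 to 0.38), in a fit of these 4 alone (0.17) and with weights by reads (0.062). It held with centred tails (-9.10 nt, adjusted p = 0.017) and on the log2 scale (-0.41, adjusted p = 0.011). For pos-1 itself the tails were 48.2 and 47.9 nt in pos-1 RNAi, against 55.9 and 64.7 nt in mex-5 RNAi (-12.3 ± 3.25 nt, adjusted p = 0.12), and centred -13.2 nt (adjusted p = 0.0057). With mex-5 tails (9.48 nt longer in pos-1 RNAi after centring, adjusted p = 0.049), 3 of 6 genes passed after centring, against 2.69% of all genes. With single libraries dropped, each of these 3 centred calls held in 1 of 4 fits, for pos-1 on dropping mex-5 RNAi replicate 1 (0.011) and for mex-5 and oma-2 on dropping mex-5 RNAi replicate 2 (0.048 and 0.045).

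Between pos-1 RNAi and gld-3 RNAi, 0 of 6 genes passed on uncentred tails (limma, against 0.274% of all genes called). By an unadjusted limma p under 0.05 the counts were 5 of 6 genes and 470 of all 5471. In 5 of 6 genes both pos-1 RNAi libraries had longer tails than both gld-3 RNAi libraries, against 21.7% of all genes. Tails of mex-5 were 56.6 and 54.9 nt in pos-1 RNAi, against 39.1 and 43 nt in gld-3 RNAi (14.7 ± 3.18 nt, SE; adjusted p = 0.096), and centred 14.1 nt (adjusted p = 0.011), as 1 of 6 genes against 1.43% of all genes. The centred call ended on dropping any of the 4 libraries (adjusted p from 0.055 to 0.11). With mex-5 RNAi set against mex-6(pk440), 0 of 6 genes passed (limma, against 0.0731% of all genes called). By an unadjusted limma p under 0.05 the counts were 4 of 6 genes and 644 of all 5471. Tails of oma-2 were 33 and 34.1 nt in mex-5 RNAi, against 26.8 and 25.3 nt in the mex-6(pk440) libraries (7.50 ± 1.64 nt, adjusted p = 0.12), which passed on the log2 scale (0.37, adjusted p = 0.029).

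In pos-1 RNAi and in mex-6(pk440) the largest tail difference from N2 among the 6 genes was in oma-2. In pos-1 RNAi its tails were 26.4 and 24.3 nt, against 31.2 and 29.4 nt in N2 (limma adjusted p = 0.35), and in mex-6(pk440) they were 26.8 and 25.3 nt (-4.29 ± 1.64 nt, adjusted p = 0.999). Both groups lay below N2 for this gene without overlap. The residual pos-1 RNA under pos-1 RNAi had tails of 48.2 and 47.9 nt, against 53.8 and 44.6 nt in N2, and the residual mex-6 RNA in mex-6(pk440) had tails of 36.6 and 43.3 nt, against 40.4 and 36.4 nt in N2, on 59 and 15 reads in mex-6(pk440). Neither residual RNA lay apart from its N2 libraries in tail length.

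In the test of any difference among the 6 groups, 1 of 6 genes was called on uncentred tails, oma-2 (limma adjusted p = 0.024), against 1.7% of all genes. In descending order its mean tails were 33.5 nt in mex-5 RNAi, 26.7 nt under gld-2 RNAi, 26.1 nt in the mex-6(pk440) libraries, 25.3 nt in pos-1 RNAi and 21.2 nt in gld-3 RNAi, against 30.3 nt in N2, which lay between the mex-5 RNAi and gld-2 RNAi means. The libraries of mex-5 RNAi lay above all others and those of gld-3 RNAi below all others, while gld-2 RNAi, mex-6(pk440) and pos-1 RNAi overlapped. The oma-2 call was lost in 8 of the 12 fits that each left out a library, with adjusted p from 0.024 to 0.081 over the 12, and held on dropping a library of gld-3 RNAi or N2. On centred tails 6 of 6 genes passed this test, against 6.16% of all genes. The mex-6 call ended on dropping any gld-3 RNAi or gld-2 RNAi library (adjusted p from 0.052 to 0.076), and the oma-1 call on dropping either gld-2 RNAi library (0.13 for replicate 1, 0.12 for replicate 2).

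**Figure D4:**
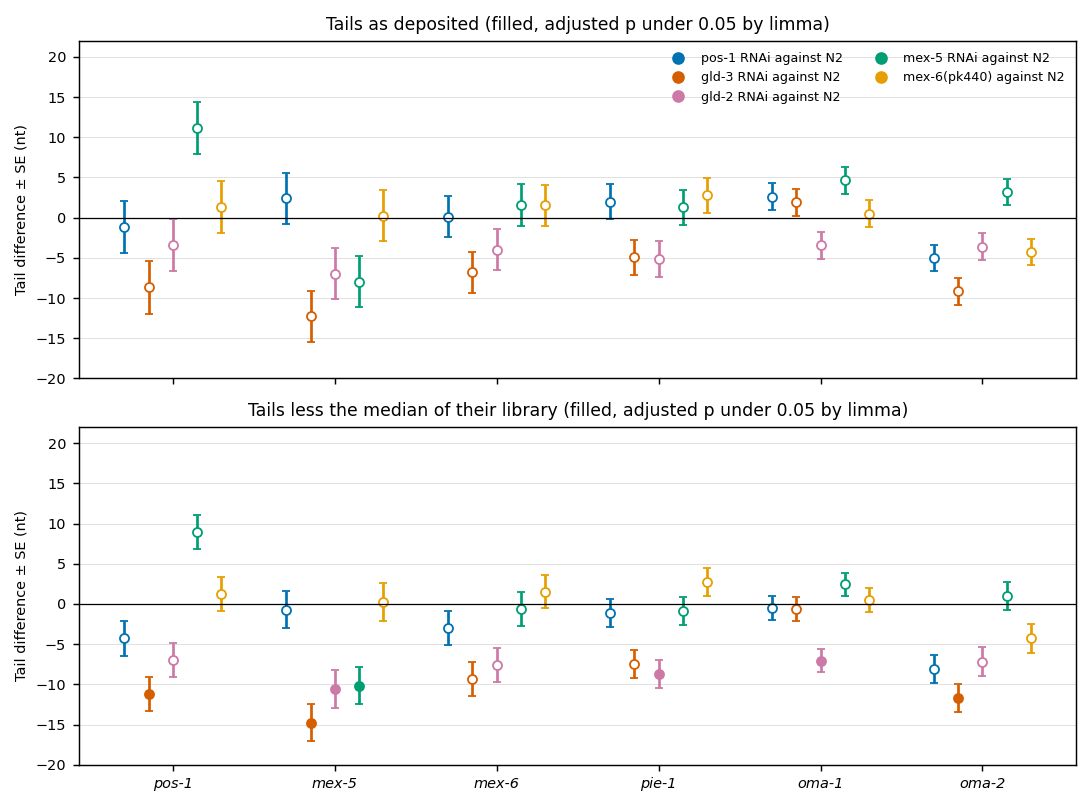
Difference in mean tail from N2 in nt with its SE from limma for each gene in the 5 other groups (n = 2 libraries per group), on deposited tails (top) and on tails less the median of their library (bottom). Filled points have an adjusted p under 0.05. No point is filled on deposited tails; after centring, mex-5, oma-2 and pos-1 in gld-3 RNAi, mex-5, pie-1 and oma-1 in gld-2 RNAi and mex-5 in mex-5 RNAi are filled, and pos-1 in mex-5 RNAi lies highest in both panels.

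The 4 poly(A) sites of oma-1 lay 39 to 139, 135 to 235, 219 to 319 and 370 to 470 bp past the annotated end, and are numbered in that order, with site 2 overlapping both of its neighbours. Most reads ended at site 4, with 81.6% and 83.9% in pos-1 RNAi, 80.1% and 79.6% in gld-3 RNAi, 84.4% and 86.2% in gld-2 RNAi, 77.2% and 77% in mex-5 RNAi, 87.4% and 83.9% in mex-6(pk440), and 78.6% and 83.2% in N2. Site 3 held 10.1% to 19.1%, highest in mex-5 RNAi at 17.8% and 19.1%, against 14.3% and 12.6% in N2. Site use was tested with edgeR's diffSpliceDGE over 1415 genes with more than 1 peak, and oma-1 was called in 0 of the 5 comparisons with N2, with 1 at an unadjusted p under 0.05. The background was 0% in pos-1 RNAi, 0% in gld-3 RNAi, 0.353% in gld-2 RNAi, 0.283% in mex-5 RNAi and 0% in mex-6(pk440). The lowest value was for gld-2 RNAi (gene adjusted p = 0.48), where site 1 held 11 and 3 reads, or 0.468% (95% interval 0.234% to 0.836%) and 0.273% (0.0564% to 0.797%), against 62 and 28 reads, or 1.57% (1.21% to 2.01%) and 1.03% (0.686% to 1.49%), in N2. These are exact binomial intervals and cover counting error only.

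Tails differed between the sites of oma-1. At site 4 they were 46.7 and 46.3 nt in pos-1 RNAi, 44.4 and 47.4 nt in gld-3 RNAi, 40.2 and 40.4 nt in gld-2 RNAi, 46.8 and 50.2 nt under mex-5 RNAi, 43.7 and 44.2 nt in the mex-6(pk440) libraries, and 43.8 and 43.4 nt in N2. At site 3 they were 31.4 and 33.3 nt in pos-1 RNAi, 30.5 and 35.4 nt in gld-3 RNAi, 25 and 30.4 nt in gld-2 RNAi, 38.9 and 40.7 nt under mex-5 RNAi, 30.1 and 34.1 nt in the mex-6(pk440) libraries, and 35.8 and 31.3 nt in N2. RNAs that ended at site 4 carried a longer mean tail than those that ended at site 3 in all 12 libraries. The oma-1 mean of a library is therefore a mixture over sites, weighted by their reads.

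**Figure D5:**
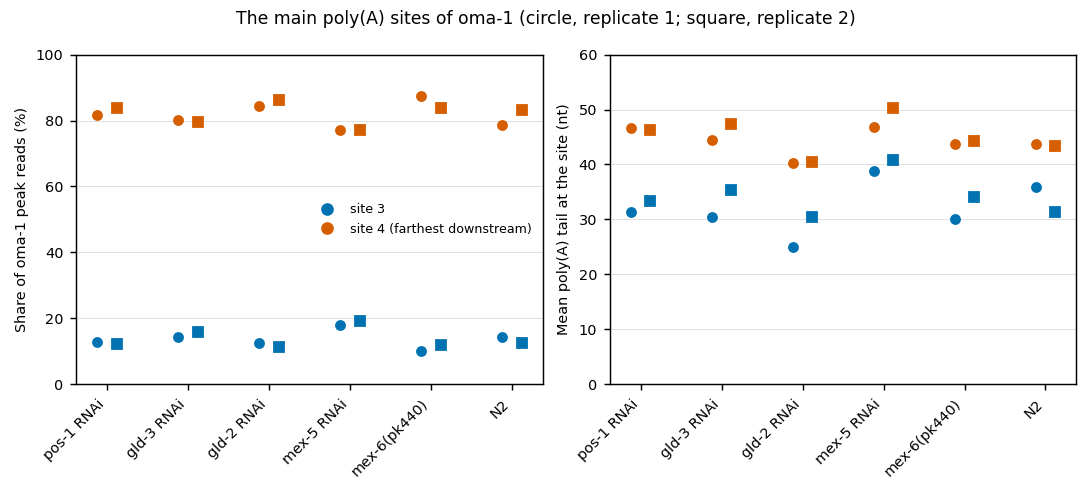
Share of oma-1 peak reads in percent (left) and mean poly(A) tail in nt (right) at site 3 and at site 4, the site farthest downstream, in each of the 12 libraries. Site 4 holds 77% to 87.4% of the reads and has the longer tail in each library; site 3 reaches its highest share and its longest tails in mex-5 RNAi.

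Related genes were read as lists. Of 7 other CCCH zinc finger genes 4 had a row of their own and were tested for level. In mex-5 RNAi against N2, 1 rose and 1 fell, as 2 of 4 against 30.8% of all genes called. The falling gene was dct-13, with 4.23 and 3.72 CPM in mex-5 RNAi, against 21.9 and 22.9 CPM in N2 (log2 change -2.48 ± 0.31, SE; edgeR adjusted p = 9.3e-05). The rising gene was ccch-1, with 29.3 and 10.2 CPM in mex-5 RNAi, against 4.81 and 4.68 CPM in N2 (2.07 ± 0.64, adjusted p = 0.025). In gld-2 RNAi ccch-3 fell (-0.98 ± 0.30, edgeR adjusted p = 0.029), as 1 of 4 against 12.8% of all genes called lower.

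Among 7 tested of 12 genes for kinases and degradation factors that act on these proteins, 2 fell in gld-2 RNAi, against 12.8% of all genes called lower. They were egg-3, a scaffold of the egg cortex that holds the kinase MBK-2 (-2.33 ± 0.38, SE; edgeR adjusted p = 0.0012), and zif-1, the adaptor that marks CCCH proteins for destruction in somatic cells (-1.17 ± 0.20, adjusted p = 0.0015). In pos-1 RNAi 1 of 7 fell, egg-3 (-1.18 ± 0.36, adjusted p = 0.0497), against 12.2% of all genes called in either direction. The list median was -0.38 in gld-2 RNAi, beside -0.0050 over all genes tested.

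Of 10 tested messages and partners that CCCH proteins bind or control, which again include zif-1, 0 rose and 6 fell in gld-2 RNAi, against 12.8% of all genes called lower (median -0.74 on the log2 scale, beside -0.0050 over all genes). The germline message nos-2 changed by -1.80 ± 0.22 (SE; edgeR adjusted p = 2.5e-04) and the Wnt ligand message mom-2 by -1.46 ± 0.22 (adjusted p = 6.9e-04). In mex-5 RNAi 2 fell, against 12.5% of all genes called lower: F32D1.6 (neg-1; -1.45 ± 0.28, adjusted p = 0.0016) and the Notch ligand message apx-1 (-1.25 ± 0.25, adjusted p = 0.0024). Of 9 tested for tails, mom-2 was called in mex-5 RNAi, at 47.8 and 51.9 nt, against 34.7 and 34 nt in N2 (15.5 ± 2.29 nt, limma adjusted p = 0.016). That was 1 of 9, against 0.402% of all genes. Tails of nos-2 differed by -12.1 ± 2.14 nt between pos-1 RNAi and mex-5 RNAi (limma adjusted p = 0.025), in the same direction as oma-2. With mom-2, 2 of 9 were called in that comparison, against 0.841% of all genes.

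Maternal RNA regulators that work beside the CCCH proteins fell widely in gld-2 RNAi, with 12 of 15 tested called lower and 0 higher, against 12.8% of all genes called lower (median -1.67 on the log2 scale, beside -0.0050 over all genes). The 12 include gld-2, the target of the RNAi (-1.17 ± 0.33, SE; edgeR adjusted p = 0.019), and nos-2 and mex-3, which the list of bound or controlled genes also holds. The Pumilio family genes puf-5 (-2.64 ± 0.20, SE; edgeR adjusted p = 2.8e-05) and puf-3 (-2.26 ± 0.22, adjusted p = 7.4e-05) and the translational repressor gene gld-1 (-1.78 ± 0.19, adjusted p = 1.5e-04) had the smallest p. In gld-3 RNAi 4 of 15 fell, the targeted gld-3 among them (log2 change -3.56 ± 0.23), against 8.08% of all genes called in either direction. Under mex-5 RNAi 3 of 15 fell, against 12.5% of all genes called lower. Of 11 tested for tails, the RNA-binding protein gene spn-4 was called in mex-5 RNAi, at 44.1 and 45.5 nt, against 35.9 and 32.7 nt in N2 (10.5 ± 1.86 nt, limma adjusted p = 0.043), and car-1, a component of RNA granules, in gld-2 RNAi (19.4 ± 1.88 nt, adjusted p = 0.0017). Each was 1 of 11, against 0.402% of all genes in mex-5 RNAi and 0.238% in gld-2 RNAi.

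The genes whose patterns were most like those of the CCCH genes were named by Pearson's r over the 12 libraries, as a description, since libraries of a group share their treatment. For levels, among 8548 genes, oma-2 was closest to nos-2 (r = 0.975), oma-1 to eif-3.E (0.963), pie-1 to htp-2 (0.931), pos-1 to M153.1 (0.97), mex-5 to cnd-1 (0.972) and mex-6 to E01G4.5 (0.886). For tails, among 5000 genes, pie-1 was closest to par-6 (0.917), mex-5 to eef-1B.2 (0.972) and pos-1 to T23D8.12 (0.943). Likewise mex-6 was closest to F43G9.13 (0.93), oma-1 to F31C3.4 (0.928) and oma-2 to H02I12.5 (0.89). The level patterns of pos-1, mex-5 and mex-6 include the groups in which these genes were targeted, and that of mex-6 also its low level in mex-5 RNAi.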

How the data were processed

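PAT-seq libraries of early C. elegans embryos were deposited by the authors as raw counts of reads for genes and for poly(A) peaks, and as the mean tail length in nt of the reads of each gene or peak. Reads were aligned with Bowtie2 2.2.2 to ce10, per the submitters' processing notes, and no tail value stands where a gene has under 10 reads. Counts were tested in R 4.3.3 with edgeR 4.0.16 (TMM factors, filterByExpr, quasi-likelihood test, 12 libraries, 1 coefficient per group). Log2 changes are the estimates of that fit, and a prior count of 2 was used only for the log2 CPM of the correlations. The SE of a level change was derived as its absolute value over the square root of the F statistic. Tails were tested with limma 3.58.1 on genes with at least 10 reads and a tail in all 12 libraries, and poly(A) sites with edgeR's diffSpliceDGE. All p-values were adjusted over all genes of a fit by the Benjamini-Hochberg method, at a threshold of 0.05. DESeq2 1.42.0 was an alternative. The fits were tested on simulated data with planted changes larger than most differences given here, so their power for smaller changes was not tested. The genes and lists were chosen with earlier results of these data known, and from each list up to 4 genes per comparison with the smallest p were named, among those called. Reads carry no molecular identifiers, so intervals cover counting error only. With 2 libraries per group precision is low, and replicates varied beyond counting error.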

Additional observations from a re-analysis of the deposited data

How the results depend on the processing

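Of the single gene values, 512 level values and 605 tail values kept their direction and side of the threshold under an alternative or differed in sign only below it, 9 and 27 passed where the reported fit did not, and 19 and 7 no longer passed. No called value reversed, while 18 level values and 43 tail values changed sign below the threshold in both fits. The counts of the 6 genes called moved as follows, and the cause was not tested. For levels, a fit of the 4 libraries alone called 5 in gld-2 RNAi against N2 (3 as reported), 0 in gld-3 RNAi against gld-2 RNAi (1) and 0 in pos-1 RNAi against gld-3 RNAi (1), and without the low-count filter 5 were called in gld-2 RNAi against N2. Both of these fits called 5 in mex-5 RNAi against N2 (4 as reported), and the 4 libraries alone called 3 in pos-1 RNAi against mex-5 RNAi (4). In gld-3 RNAi against N2 (0 as reported), the reads of the peaks, chosen after seeing the data, called 1 and the replicate block called 2. Leaving out a library gave 1 to 3 in gld-2 RNAi against N2, 0 to 1 in gld-3 RNAi against gld-2 RNAi, 2 to 3 in mex-5 RNAi against N2, 3 to 4 in pos-1 RNAi against mex-5 RNAi, 2 to 3 in mex-5 RNAi against mex-6(pk440) (3 as reported) and 4 to 6 in the test of any group (6). For tails, centring with or without the replicate block called 3 in gld-3 RNAi, 3 in gld-2 RNAi and 1 in mex-5 RNAi against N2 (0 as reported in each), 1 in pos-1 RNAi against gld-3 RNAi (0), 3 in pos-1 RNAi against mex-5 RNAi (1) and 6 in the test of any group (1). Log2 tails called 1 in each of gld-3 RNAi against N2, gld-3 RNAi against gld-2 RNAi and mex-5 RNAi against mex-6(pk440) (0 in each), and 2 in the test of any group. Weights by reads called 2 in gld-3 RNAi against N2, 1 in pos-1 RNAi against gld-3 RNAi, 0 in pos-1 RNAi against mex-5 RNAi and 3 in the test of any group. A fit of the 4 libraries alone called 1 in pos-1 RNAi against gld-3 RNAi and 0 in pos-1 RNAi against mex-5 RNAi, where the replicate block also called 0. Leaving out a library gave 0 in pos-1 RNAi against mex-5 RNAi and 0 to 2 in the test of any group. With at least 50 reads required, mex-6 had no tail test. Libraries share only a replicate number: same-numbered deviations correlated at -0.149 to 0.455 for levels (over 0.1 in 9 of 15 pairs of groups) and at -0.146 to 0.254 for tails (5 of 15), and the labels name no shared batch. Over all genes, the level count in pos-1 RNAi against N2 ran from 355 to 1549 (1148 as reported), in gld-3 RNAi from 125 to 1279 (760), in gld-2 RNAi from 1184 to 3134 (2551), in mex-5 RNAi from 1855 to 3307 (2900) and in mex-6(pk440) from 1 to 172 (2). Tail counts ran from 0 to 8 (1), 0 to 78 (1), 0 to 97 (13), 0 to 101 (22) and 0 to 1 (0) in the same order.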
